A study of Mus musculus with 4 samples.

Results

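Axon guidance genes were followed in sorted Fgf10-positive cells of the mouse SMG (submandibular gland), a salivary gland whose ducts and acini are epithelial and sit in a mesenchymal stroma. The set held 72 protein-coding genes out of 53465 genes counted, chosen by symbol: all semaphorins (Sema), plexins A to D (Plxn), neuropilins (Nrp1, Nrp2), ephrins (Efna, Efnb), Eph receptors (Epha, Ephb), Slit1 to Slit3, Robo, netrins (Ntn), Unc5 and Dcc. The prefix Unc5 also took in Unc50, a membrane protein gene that is no netrin receptor. Unc50 counts among the 72 but in no family. Unc5cl, matched by the same prefix, was placed with the netrin receptors by its symbol alone. Adult cells came from mice taken at P60 that had received tamoxifen at P57 and P58, and pup cells from mice taken at P7 that had received it at P4 and P5 (P, postnatal day). The dose was 0.1 mg per g of body weight at both ages, and all mice were C57BL/6J carrying Fgf10CreERT2:Rosa26Tomato fl/fl. In that genotype the Tomato reporter is switched on by an inducible Cre under Fgf10 control, so the label marks cells that used Fgf10 at the time of tamoxifen. There were 2 libraries per age. The labels do not say whether these came from separate mice, so errors and p-values measure the spread between these libraries, which may be technical.

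Guidance molecules are secreted or membrane-bound cues that steer axons, vessels and epithelial buds by attraction or repulsion. Semaphorins signal through plexins, and most secreted class 3 semaphorins also need a neuropilin as co-receptor. Ephrins are held on the cell surface, the A type by a lipid anchor and the B type by a membrane span, and they bind Eph receptor tyrosine kinases on a neighbouring cell. Slits bind Robo receptors, and netrins bind Dcc and the Unc5 family. In the embryonic SMG, class 3 semaphorins and neuropilins are known for a part in cleft formation during branching.

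The libraries differed in ways that touch these genes. Counts over genes came to 13791730 and 16585518 in adult libraries against 7289792 and 21490686 in pup libraries. Pup replicate 1 carried a diffuse background. In it 76.7% of reads were assigned to no counted feature, against 9.70% to 10.6% in the other libraries. The feature type was not given, so these reads need not lie outside genes. Of 1134 olfactory receptor genes, which salivary cells should not use, 96.5% had a count there. The rate over those receptors, 14.0 counts per kb of exon, sets an expected background for every gene in that library, amounting to 24.1% of its gene counts. It is an average and need not hold for a single gene. The labelled cell type was checked with short marker lists. Summed markers of ionocytes, the proton- and chloride-handling cells of the ducts, stood at 4599 and 2305 CPM (counts scaled to a common library size, with TMM factors) in the adults and 50.5 and 37.3 CPM in pup libraries. Mesenchymal markers summed to 1117 and 21839 CPM in adult libraries against 25496 and 58112 CPM in pup libraries. In bulk samples, fewer cells of a type and less RNA per cell cannot be told apart.

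The clearest features of the set were a plexin, Plxna4, that was abundant in both adult libraries and low in the pups, and a group of receptors and ligands lower in adult, of which Sema5a, Ntng1, Unc5c, Epha4 and Robo1 had the smallest p. For Unc5c and Robo1 over 50% of the counts in pup replicate 1 were expected background. Of the 72 members, 61 passed the filter on low counts. In the fit of edgeR across 16320 genes, 0 members were called higher and 0 lower in adult at an adjusted p of 0.05, where 0% of all genes tested were called in each direction. The smallest adjusted p of a member was 0.210, for Plxna4. At an unadjusted p under 0.05, which allows for no multiple testing, 2 members were higher in adult (Plxna4 and Sema3b), 3.28% of those tested against 5.99% of all genes. At that threshold 12 members were lower in adult, 19.7% against 8.49% of all genes. DESeq2 on the same genes called 2 members higher and 9 lower at an adjusted p of 0.05, where it called 3.74% and 5.28% of all genes. Both adult libraries lay below both pup libraries for 31 of the 61 members (50.8%, against 27.1% of all genes) and above them for 6 (9.84%, against 21.8%). Log2 fold changes of adult over pup were negative for 42 members (68.9%, against 57.1% of all genes). Their median was -0.97 for the 61 members and -0.24 for all genes tested.

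These counts moved with single libraries. Lower in adult at an unadjusted p under 0.05 were 11 members without adult replicate 1 (6.11% of all genes), 18 with adult replicate 2 left out (13.5%), 8 with pup replicate 1 left out (4.58%) and 4 with pup replicate 2 left out (4.42%). Higher in adult at that threshold were 3, 1, 2 and 3 members in the same order of libraries, beside 3.94%, 4.17%, 6.13% and 9.86% of all genes. By adjusted p without adult replicate 1, edgeR called Plxna4 higher (1.4% of all genes) and Ntng1 and Unc5c lower (0.987%). Without adult replicate 2 it called Plxna4 higher (1.51%) and 9 members lower (4.49%), namely Nrp1, Nrp2, Epha3, Epha4, Sema3a, Sema3d, Robo2, Unc5c and Plxnc1. Leaving out a pup library gave 0 calls in each direction, of members and of all genes. Leaving out an adult library moved the median of the members to -0.55 (replicate 1 left out) or -1.82 (replicate 2 left out). With the expected background subtracted from pup replicate 1, 11 members were lower and 3 higher at an unadjusted p under 0.05, where 6.87% and 7.19% of all genes were. The median was then -0.59, against -0.06 for all genes. Net of that background, the adult libraries lay below the pup libraries for 20 members (18.4% of all genes) and above them for 10 (27.5% of all genes). With no filter beyond 1 count, edgeR called 1 member higher (0.624% of all genes) and 2 lower (0.508%). With 10 counts required in every library of an age it called 0 members, beside 0.0856% and 0.0132% of all genes. A replicate block left 2 members higher and 11 lower at an unadjusted p under 0.05, beside 4.82% and 5.31% of all genes. The smallest p that exact permutation, two-sided, allows for a single gene at 2 libraries per age is 0.333.

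**Figure D1:**
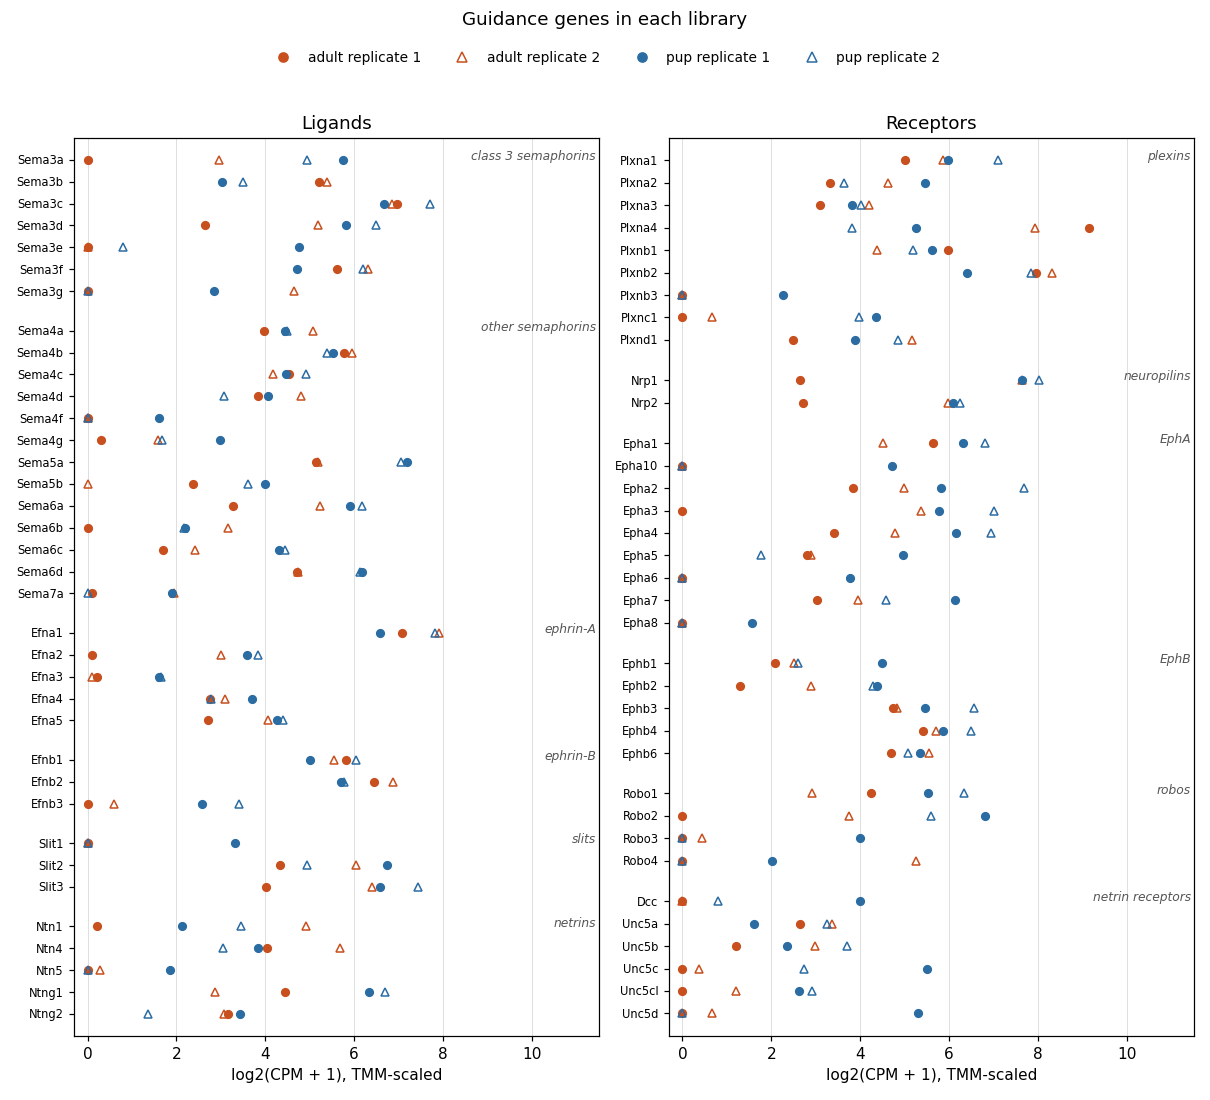
Level of each guidance gene in each library as log2(CPM + 1), with ligands on the left and receptors on the right, grouped by family. Orange marks adult and blue marks pup libraries, filled circles replicate 1 and open triangles replicate 2; Plxna4 stands at 563 and 244 CPM in the adults, to the right of both pup libraries, whereas the EphA receptors mostly have their blue marks to the right.

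Among class 3 semaphorins, the secreted ligands, the family split. Sema3b stood at 36.1 and 41.2 CPM in adult libraries against 7.14 and 10.2 CPM in pup libraries. Both adults lay above both pups, with a log2 fold change of 2.15 ± 0.61 (SE; edgeR adjusted p = 0.269, DESeq2 adjusted p = 0.0332). Its 66 counts in pup replicate 1 were matched by 66.8 expected from background. Sema3c, the most abundant ligand of the class per kb of exon, had 124 and 115 CPM in adult libraries against 101 and 209 CPM in pup libraries, so that the ages overlapped. Sema3f, known as a repellent acting through Nrp2, overlapped as well at 48.2 and 78.2 CPM in adult against 25.4 and 73.0 CPM in pup. Sema3d stood at 5.21 and 35.1 CPM in adult libraries against 55.6 and 89.2 CPM in pup libraries. The ages did not overlap for Sema3d, but adult replicate 1 was far below adult replicate 2 and the log2 fold change of -1.84 ± 0.90 did not pass (edgeR adjusted p = 0.431). Sema3a, the classical repellent that binds Nrp1, was at 0 and 6.77 CPM in adult libraries against 52.4 and 29.7 CPM in pup libraries, 31.4 CPM in pup replicate 1 being left net of background. Over the 6 tested members of the class, 3 fold changes were positive and 3 negative, and the median was -0.01.

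The other semaphorins are membrane-bound, and 3 of the 12 tested were lower in adult at an unadjusted p under 0.05, with none higher, beside 8.49% and 5.99% of all genes. Sema5a, a semaphorin with thrombospondin repeats, had 34.1 and 35.3 CPM in adult libraries against 146 and 133 CPM in pup libraries. Replicates of an age lay close together and the ages far apart. The log2 fold change was -2.01 ± 0.46 (edgeR adjusted p = 0.232, DESeq2 adjusted p = 0.000558), and it ranged from -2.07 to -1.94 when each library was left out in turn. Sema6d is a transmembrane ligand that can also act as a receptor. It stood at 25.4 and 25.6 CPM in adult libraries against 71.0 and 68.9 CPM in pup libraries. Its log2 fold change was -1.46 ± 0.45 (edgeR adjusted p = 0.284, DESeq2 adjusted p = 0.0497). Sema6c stood at 2.22 and 4.32 CPM in adult libraries against 18.9 and 20.8 CPM in pup libraries. Net of background, 9.95 CPM of Sema6c were left in pup replicate 1. For this gene the adjusted p was 0.323 by edgeR and 0.0466 by DESeq2. Sema4b had the reverse order, with 53.3 and 60.4 CPM in the adults above 44.7 and 40.6 CPM in pup libraries, at a log2 fold change of 0.41 ± 0.45. The remaining tested members of the group ran from -2.63 (Sema5b) to 0.80 (Sema4d), and the family median was -0.91.

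Sema5a lies on chromosome 15 (ENSMUSG00000022231, 32244810 to 32696341 in GRCm38, plus strand). It had the smallest p among the members lower in adult, and Ntng1, a netrin-G, and Epha4 (ENSMUSG00000026235, chromosome 1, 77367185 to 77515088, minus strand) were among the next 3. The promoter windows of these 3 genes, from 250 bases before to 50 after the RefSeq start (GRCm38.p6), are shown as examples. Both pups lay above both adults for each of them, net of background as well. The same held for other members, among them Unc5c, with a smaller p than Epha4, and Robo1. Capitals mark the GC box GGGCGG on either strand; neighbouring matches may overlap. The windows are chr15:32244563-32244862 on the plus strand, chr3:110143423-110143722 on the minus strand and chr1:77515039-77515338 on the minus strand.
Sema5a: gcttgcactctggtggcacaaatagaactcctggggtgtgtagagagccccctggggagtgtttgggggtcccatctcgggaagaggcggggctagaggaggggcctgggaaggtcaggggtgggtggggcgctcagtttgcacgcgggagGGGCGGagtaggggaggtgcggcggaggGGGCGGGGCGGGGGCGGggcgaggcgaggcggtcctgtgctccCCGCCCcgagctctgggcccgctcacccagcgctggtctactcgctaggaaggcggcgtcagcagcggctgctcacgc
Ntng1: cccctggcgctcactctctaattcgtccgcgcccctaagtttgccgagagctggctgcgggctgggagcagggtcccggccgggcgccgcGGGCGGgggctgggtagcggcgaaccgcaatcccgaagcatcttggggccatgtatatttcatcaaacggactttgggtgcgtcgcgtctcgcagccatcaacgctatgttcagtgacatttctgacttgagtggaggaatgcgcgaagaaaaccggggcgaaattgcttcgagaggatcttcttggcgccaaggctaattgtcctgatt
Epha4: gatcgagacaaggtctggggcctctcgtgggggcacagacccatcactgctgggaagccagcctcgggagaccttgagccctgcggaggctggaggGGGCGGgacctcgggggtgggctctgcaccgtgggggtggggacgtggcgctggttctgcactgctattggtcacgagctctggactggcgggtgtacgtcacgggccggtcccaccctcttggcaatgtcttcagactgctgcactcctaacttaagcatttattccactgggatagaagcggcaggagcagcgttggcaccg
The windows held 5, 1 and 1 GC boxes and 0 TATAAA, and their GC contents were 71.3%, 59.7% and 64.0%. The windows of Unc5c and Robo1, not shown, held 0 GC boxes. RefSeq windows were found for 62 of the 72 members. A GC box stood in 55 of their 78 windows (70.5%) and in 35.7% of all 32851 windows, and TATAAA stood in 2 of 78 and in 13.6%. These are matches of letters and do not show that a factor binds.

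Plexins, the receptors of semaphorins, held the largest adult-high value of the set. Plxna4 (ENSMUSG00000029765, chromosome 6, 32144268 to 32588192, minus strand), which with neuropilins forms a receptor for class 3 semaphorins and also binds class 6 semaphorins, stood at 563 and 244 CPM in adult libraries against 37.2 and 13.0 CPM in pup libraries. Expected background accounts for 197 of its 344 counts in pup replicate 1, which leaves 15.9 CPM. The log2 fold change was 4.01 ± 0.85 and missed the adjusted threshold of edgeR at 0.210, while DESeq2 gave an adjusted p of 1.83e-05. Left out in turn, the libraries gave values from 3.21 to 4.95. EdgeR called the gene at an adjusted p of 0.0147 without adult replicate 1 and 0.0129 without adult replicate 2, but not without pup replicate 1 or 2 (0.358 and 0.335). An antisense gene, Plxna4os3, shares 0.780% of its exon length, and had 0 counts in the adults.

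Per kb of exon, which allows levels of different genes to be compared, Plxna4 averaged 28.6 CPM per kb in the adults and 1.78 CPM per kb in the pups. It made up 47.5% and 23.0% of the summed plexin CPM per kb in the adults, against 7.68% and 1.61% in the pups. These levels and shares are not net of background, which was expected to give 197 of the 344 Plxna4 counts in pup replicate 1. Plxnb2, a receptor of class 4 semaphorins, was the most abundant plexin per kb on average at both ages, at 36.6 CPM per kb in adult and 20.2 CPM per kb in pup. Plxnb2 stood at 248 and 317 CPM in adult libraries against 84.1 and 228 CPM in pup libraries, with a log2 fold change of 0.86 ± 0.68. Its adult values were above both pups, the margin over pup replicate 2 being small. Plxna1 was lower in the adults, at 31.1 and 56.9 CPM in adult against 62.3 and 137 CPM in pup, with a log2 fold change of -1.18 ± 0.60, and 48.6 CPM in pup replicate 1 net of background lies between the adults. Plxnc1, the receptor of Sema7a, had 0 and 0.576 CPM in adult libraries against 19.6 and 14.8 CPM in pup libraries. Its log2 fold change of -5.85 ± 1.99 did not pass by edgeR (adjusted p = 0.284) and did by DESeq2 (adjusted p = 0.00448), and 117 of its 181 counts in pup replicate 1 were expected background. The other plexins tested, Plxna2, Plxna3, Plxnb1 and Plxnd1, overlapped between the ages, with log2 fold changes from -0.72 to -0.04.

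Neuropilins separated the adult libraries from each other more than the ages. Nrp1, the co-receptor for Sema3a and a receptor of VEGF, stood at 5.21 and 198 CPM in adult libraries against 199 and 257 CPM in pup libraries. Nrp2 stood at 5.59 and 61.6 CPM in adult libraries against 67.1 and 74.3 CPM in pup libraries. For both genes adult replicate 1 was low and adult replicate 2 lay just under the pups. Net of background, pup replicate 1 had 184 CPM of Nrp1 and 49.2 CPM of Nrp2, both under adult replicate 2. The log2 fold change was -1.17 ± 1.35 for Nrp1 and -1.07 for Nrp2 (edgeR adjusted p = 0.777 and 0.713). Without adult replicate 2 they were -5.45 and -3.66 and were called by edgeR, with adjusted p of 0.0131 and 0.0145. Without adult replicate 1 both were -0.25, and edgeR called neither gene there or without a pup library.

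**Figure D2:**
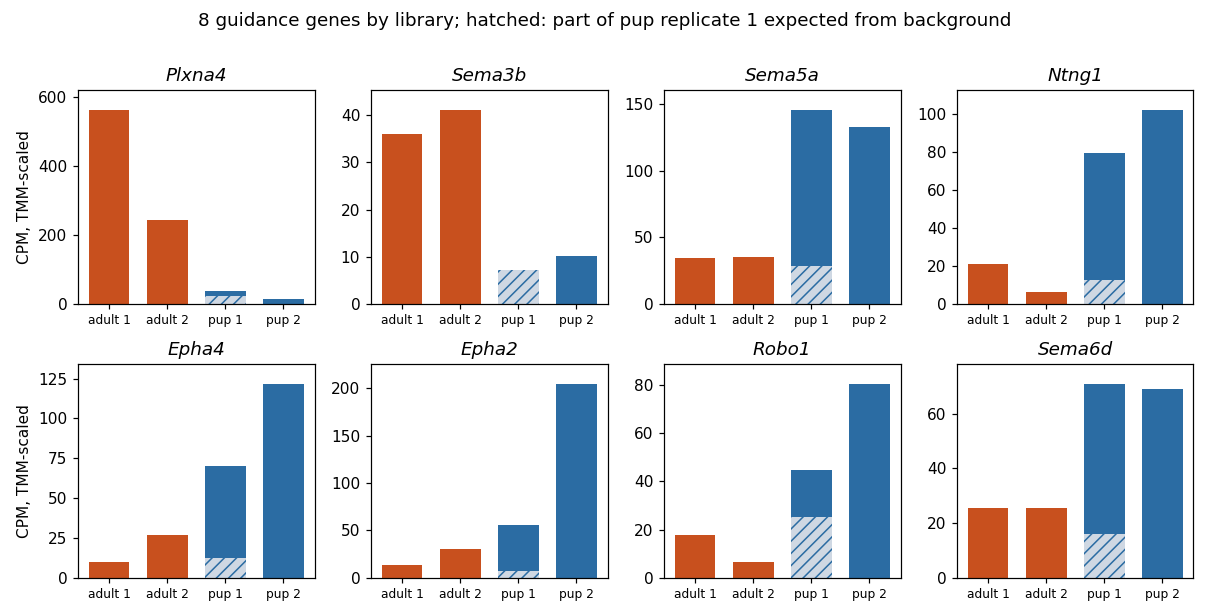
CPM of 8 guidance genes in the 4 libraries, adults in orange and pups in blue; the hatched part of pup replicate 1 is the share expected from background. Plxna4 and Sema3b are higher in both adults, and the other genes are higher in both pups, with Robo1 in pup replicate 1 falling to 19.8 CPM net of background against 17.9 and 6.55 CPM in the adults.

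All 6 tested EphA receptors had negative log2 fold changes, with a median of -2.13, and 4 of them met an unadjusted p under 0.05. Over all genes 57.1% were negative and 8.49% were lower at that threshold. EphA receptors bind the lipid-anchored ephrins. Epha2, the best known EphA of epithelia, stood at 13.4 and 30.5 CPM in adult libraries against 55.8 and 205 CPM in pup libraries, with a log2 fold change of -2.57 ± 0.79 (edgeR adjusted p = 0.284, DESeq2 adjusted p = 0.0198). Epha4, which binds ephrins of both types, stood at 9.66 and 26.6 CPM in adult libraries against 70.5 and 122 CPM in pup libraries. Its log2 fold change was -2.41 ± 0.67 (edgeR adjusted p = 0.263, DESeq2 adjusted p = 0.0134). Net of background pup replicate 1 kept 58.3 CPM of Epha4, above both adults. Epha1 had 48.7 and 21.7 CPM in adult libraries against 78.7 and 111 CPM in pup libraries. Epha7 had 7.13 and 14.5 CPM in adult libraries against 69.5 and 22.9 CPM in pup libraries. Neither passed by edgeR (adjusted p = 0.327 and 0.293). Epha3 followed the pattern of the neuropilins, with 0 and 40.4 CPM in adult libraries against 53.7 and 128 CPM in pup libraries, and 40.5 CPM in pup replicate 1 net of background. Epha5 overlapped between the ages, and 234 of its 281 counts in pup replicate 1 were expected background; without that library its log2 fold change was 1.35 in place of -1.40.

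The EphB receptors, which bind the transmembrane ephrins, were also negative for 5 of 5 members, with a median of -1.36, beside 57.1% of all genes. Ephb3 stood at 25.7 and 27.3 CPM in adult libraries against 42.6 and 92.9 CPM in pup libraries (log2 fold change -1.36 ± 0.56, edgeR adjusted p = 0.342). Ephb4, best known as a receptor of veins, had 41.7 and 51.5 CPM in adult against 57.5 and 88.9 CPM in pup, and 50.4 CPM in pup replicate 1 net of background, which lies between the adults. Ephb6, a member without kinase activity, overlapped at 24.7 and 45.7 CPM in adult against 39.6 and 32.9 CPM in pup. For Ephb2, 176 of 184 counts in pup replicate 1 were expected background.

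Of the 8 ephrin ligands tested, none met an unadjusted p under 0.05, beside 5.99% of all genes higher and 8.49% lower in adult. Too few ephrins were tested to set this apart from those shares. Their log2 fold changes ran from -4.81 (Efnb3) to 0.95 (Efnb2). Efna1 was the most abundant member of the whole set per kb at both ages, at 102 CPM per kb in adult and 87.3 CPM per kb in pup. It stood at 135 and 239 CPM in adult libraries against 94.5 and 225 CPM in pup libraries, with full overlap and a log2 fold change of 0.23 ± 0.66. Efna5 had 5.59 and 15.7 CPM in adult against 18.1 and 20.2 CPM in pup, pup replicate 1 falling to 11.97 CPM net of background. Efna2 had 0.0766 and 7.06 CPM in adult against 11.04 and 13.2 CPM in pup, again with adult replicate 1 lowest. Efna3 was low throughout, at 0.153 and 0.0720 CPM in adult libraries against 2.06 and 2.15 CPM in pup libraries, and 0 CPM was left in pup replicate 1 net of background; its log2 fold change was -4.12 ± 1.96 (edgeR adjusted p = 0.419). Of the B type, Efnb2, a marker of arteries, was higher in both adults, at 86.0 and 117 CPM in adult against 51.3 and 53.5 CPM in pup. Its log2 fold change of 0.95 ± 0.46 did not pass (edgeR adjusted p = 0.422). Efnb1 overlapped, at 55.6 and 45.9 CPM in adult against 31.2 and 64.5 CPM in pup. The sign of its small change depended on the scaling: 0.08 with TMM, -0.04 with upper-quartile factors and -0.16 with library totals. Efnb3 was near absent from the adults, at 0 and 0.504 CPM in adult against 4.98 and 9.67 CPM in pup, with 44.5 of 46 counts in pup replicate 1 expected from background.

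**Figure D3:**
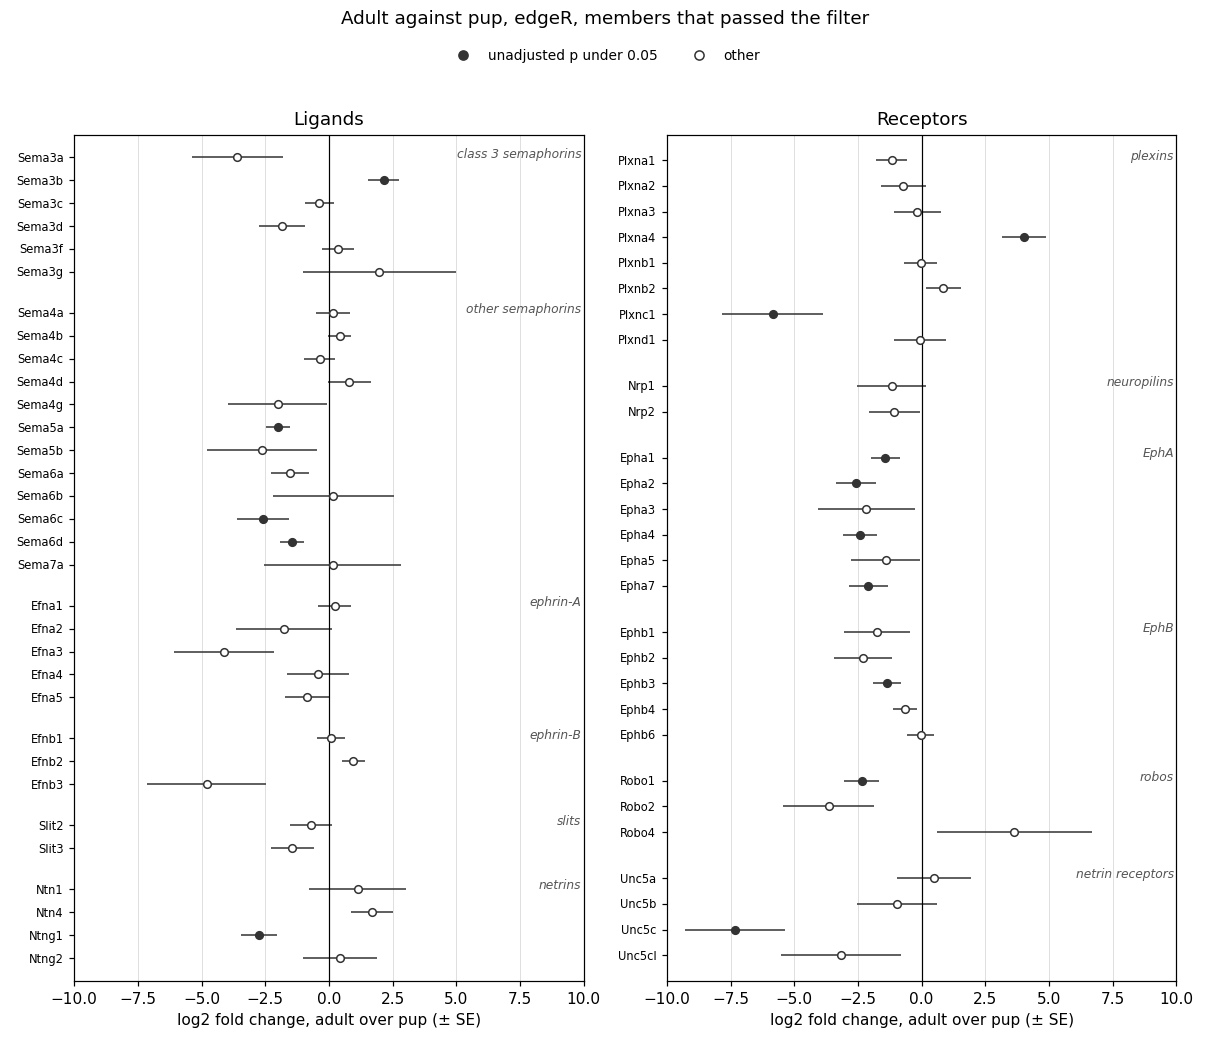
Log2 fold change of adult over pup with its SE for the members that passed the filter, ligands on the left and receptors on the right; filled points have an unadjusted p under 0.05. The 6 EphA points all lie left of 0, and Plxna4 at 4.01 and Sema3b at 2.15 are the filled points on the right.

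Slit ligands and their Robo receptors showed wide gaps within an age, and 1 of the 5 tested, Robo1, was lower in adult at an unadjusted p under 0.05, beside 8.49% of all genes. Slit3 stood at 15.1 and 83.4 CPM in adult libraries against 94.04 and 173 CPM in pup libraries, a log2 fold change of -1.44 ± 0.85 (edgeR adjusted p = 0.527) that moved to -0.72 when adult replicate 1 was left out and to -3.15 when adult replicate 2 was. Slit2 overlapped, at 19.2 and 64.4 CPM in adult against 106 and 29.9 CPM in pup. Its log2 fold change of -0.70 became 0.48 without pup replicate 1, where 356 of 977 counts were expected from background. Robo1 stood at 17.9 and 6.55 CPM in adult libraries against 44.8 and 80.4 CPM in pup libraries, with a log2 fold change of -2.36 ± 0.70 (edgeR adjusted p = 0.276, DESeq2 adjusted p = 0.0370). Both pups lay above both adults, but expected background makes up 231 of the 414 counts in pup replicate 1, which leaves 19.8 CPM there, close to adult replicate 1. Robo2 had 0 and 12.5 CPM in adult libraries against 110 and 46.9 CPM in pup libraries (log2 fold change -3.66 ± 1.80, edgeR adjusted p = 0.435). Without adult replicate 2, which leaves the adult value at 0, edgeR gave Robo2 an adjusted p of 3.92e-08. Without adult replicate 1 it was 0.141 (log2 fold change -2.72), and without pup replicate 1 or 2 it was 0.695 and 0.512. DESeq2 on all libraries gave 0.567. Robo4, a Robo of endothelial cells, ran the other way in 1 library alone, at 0 and 37.4 CPM in adult libraries against 3.03 and 0 CPM in pup libraries.

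Among netrins, 1 of the 4 tested, Ntng1, was lower in adult at an unadjusted p under 0.05 and none was higher, beside 8.49% and 5.99% of all genes. Ntng1, a lipid-anchored netrin-G that binds a partner on the facing cell and not Dcc (ENSMUSG00000059857, chromosome 3, 109780040 to 110144011, minus strand), stood at 20.8 and 6.26 CPM in adult libraries against 79.1 and 102 CPM in pup libraries. The log2 fold change was -2.74 ± 0.70 (edgeR adjusted p = 0.244, DESeq2 adjusted p = 0.00832), and it ran from -3.90 to -2.12 as libraries were left out. EdgeR called the gene without adult replicate 1 (adjusted p = 0.0115) but not without adult replicate 2 (0.224) or without pup replicate 1 or 2 (0.421 and 0.351). Ntng2, the other netrin-G, stood at 7.89 and 7.42 CPM in adult libraries against 9.85 and 1.58 CPM in pup libraries and overlapped, with a log2 fold change of 0.43. Net of background, 3.81 CPM of Ntng2 were left in pup replicate 1, below both adults. Ntn4, a netrin of basement membranes, was higher in both adults at 15.5 and 50.04 CPM in adult against 13.2 and 7.30 CPM in pup, with a log2 fold change of 1.68 ± 0.82 (edgeR adjusted p = 0.431). The excess of adult replicate 1 over pup replicate 1 was small before background was subtracted, which leaves 7.54 CPM in pup replicate 1. Ntn1, the founding secreted netrin, stood at 0.153 and 29.0 CPM in adult libraries against 3.35 and 10.03 CPM in pup libraries, so that the adults spanned the pups. Its 31 counts in pup replicate 1 were under the 87.8 expected from background, which leaves 0 CPM there.

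Receptors for netrins were low per kb, with Unc5a highest in adult at 1.75 CPM per kb and Unc5d, outside the filter, highest in pup at 2.08 CPM per kb. That pup value came from pup replicate 1 alone, where 129 of 355 Unc5d counts were expected background. In pup replicate 2 Unc5d had 0 counts. Dcc had 0 counts in both adults, and 137 and 14 in pup libraries, with a background of 184 expected for the first of these. Unc5c stood at 0 and 0.288 CPM in adult libraries against 44.05 and 5.62 CPM in pup libraries, with a log2 fold change of -7.32 ± 1.97 (edgeR adjusted p = 0.261, DESeq2 adjusted p = 0.000334). Expected background makes up 268 of its 407 counts in pup replicate 1, which leaves 15.1 CPM. Unc5a and Unc5b overlapped between the ages, at 5.29 and 9.29 CPM in adult against 2.06 and 8.46 CPM in pup, and at 1.30 and 6.91 CPM in adult against 4.11 and 12.0 CPM in pup. Unc50, matched by its prefix alone, had 97.2 and 54.1 CPM in adult against 43.4 and 84.0 CPM in pup and a log2 fold change of 0.25 ± 0.56.

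The 11 members that did not pass the filter were Epha6, Epha8, Epha10, Sema3e, Sema4f, Plxnb3, Slit1, Robo3, Dcc, Unc5d and Ntn5. None had more than 14 counts in any library other than pup replicate 1, where they had 18 to 355 counts. For 5 of the 11 the count there was at or under the expected background. Over the whole set, 15 of 72 members were at or under it, and for 32 at least 50% of the counts in that library were expected from background. A count of 0 was found for 21 members in adult replicate 1, for 9 in adult replicate 2 and for 12 in pup replicate 2, and for none in pup replicate 1.

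**Figure D4:**
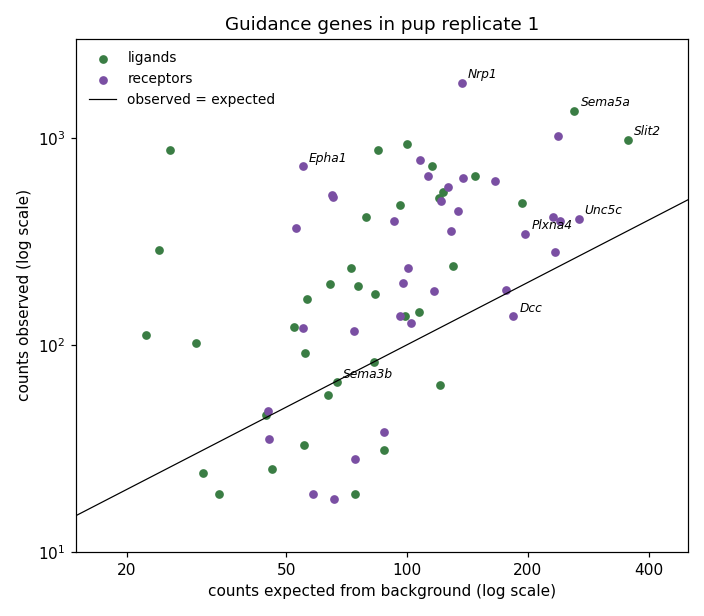
Observed counts of each guidance gene in pup replicate 1 against the counts expected from background, both on log scales, with ligands in green and receptors in purple; the line marks equality. Nrp1, with 1835 counts for 137 expected, and Sema5a stand well above the line, Unc5c and Plxna4 closer to it, and Dcc below it.

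The adult libraries differed widely from each other in some members. Of the 61 tested members, 13 were higher by over 2 in log2(CPM + 1) in adult replicate 2 than in adult replicate 1, and 1, Sema5b, was lower by as much. The widest gaps were those of Epha3, Robo4, Nrp1, Ntn1 and Sema3g, the last at 0 and 24.0 CPM in adult libraries against 6.17 and 0 CPM in pup libraries. Endothelial markers summed to 277 and 1721 CPM in adult libraries against 177 and 23.3 CPM in pup libraries. In adult replicate 1, 3 of the 10 endothelial markers had a count, almost all of it Vwf at 260 CPM, while Cdh5, Kdr, Tek, Tie1, Emcn, Egfl7 and Cldn5 were at 0. In adult replicate 2 all 10 had a count, with Pecam1 at 395 CPM. Mesenchymal markers were also lower in adult replicate 1, with Col1a1 at 46.3 and 4900 CPM in adult libraries against 5402 and 12063 CPM in pup libraries. The part of these cells in the values of the 13 members was not tested. Plxna4 had the opposite order, being higher in adult replicate 1. So were the summed markers of ionocytes, of myoepithelium, of pericytes and smooth muscle, and of leukocytes. Whether any of these cell types had a part in the level of Plxna4 was not tested.

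**Figure D5:**
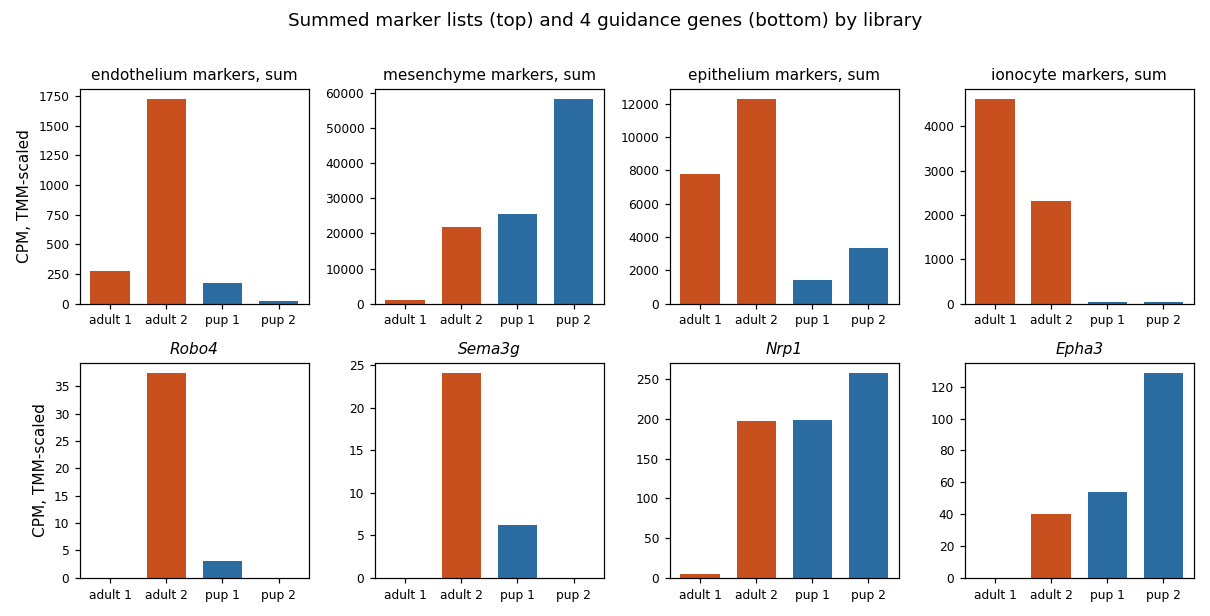
Summed CPM of 4 marker lists (top) and CPM of 4 guidance genes (bottom) in the 4 libraries, adults in orange and pups in blue. Robo4 and Sema3g are highest in adult replicate 2, where the endothelial sum is 1721 CPM, and Nrp1 and Epha3 are lowest in adult replicate 1, where the mesenchymal sum is 1117 CPM.

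The other marker lists gave the following sums, whose part in the results was not tested. Neuron markers summed to 0.153 and 37.7 CPM in adult libraries against 94.5 and 6.51 CPM in pup libraries, with Elavl4 at 0 outside pup replicate 1, and the adult value was nearly all Stmn2. Schwann cell markers summed to 131 and 204 CPM in adult against 114 and 205 CPM in pup, carried by Sox10 and Erbb3, which epithelial cells also use, with Foxd3 at 0 outside pup replicate 1. Leukocyte markers summed to 34.5 and 14.9 CPM in adult against 97.7 and 3.52 CPM in pup. Lymphatic markers summed to 31.0 and 43.8 CPM in adult against 138 and 237 CPM in pup. Most of that was Pdpn, with Lyve1 and Flt4 at 0 in adult replicate 1 and pup replicate 2. Epithelial markers summed to 7759 and 12261 CPM in adult against 1437 and 3374 CPM in pup. Myoepithelial markers summed to 4950 and 2117 CPM in adult against 4815 and 13943 CPM in pup. Pericyte and smooth muscle markers, which share Acta2 and Myh11 with the last list, summed to 4093 and 2001 CPM in adult against 3219 and 9791 CPM in pup.

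Further genes of the guidance pathways, 103 co-receptors, adhesion partners and signal relays, changed in both directions, with more of them lower than higher in adult. Of 97 tested, 16 had both adults above both pups and 35 both adults below, beside 21.8% and 27.1% of all genes. For these genes edgeR called 0 at an adjusted p of 0.05, and 4 were higher and 15 lower in adult at an unadjusted p under 0.05, beside 5.99% and 8.49% of all genes. DESeq2 called 3 higher and 8 lower, beside 3.74% and 5.28% of all genes. The median log2 fold change was -0.48, against -0.24 for all genes tested. Higher in adult were Met, a receptor tyrosine kinase that couples to B plexins, at 187 and 93.5 CPM in adult against 33.0 and 21.6 CPM in pup, and Erbb2, which also couples to B plexins, at 96.3 and 84.7 CPM in adult against 34.5 and 46.6 CPM in pup. Gipc1, an adaptor that binds the tail of Nrp1, had 200 and 133 CPM in adult against 20.5 and 54.6 CPM in pup, and the phosphatase gene Ptprj 70.2 and 51.3 CPM in adult against 17.6 and 10.7 CPM in pup. All 4 had both adults above both pups. For Ptprj, 117 of 163 counts in pup replicate 1 were expected background.

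Lower in adult were Flrt2 and Flrt3, adhesion proteins that bind Unc5 receptors. Flrt2 stood at 10.1 and 21.5 CPM in adult libraries against 75.9 and 79.6 CPM in pup libraries, and Flrt3 at 3.14 and 4.46 CPM in adult against 29.5 and 30.0 CPM in pup. Their log2 fold changes were -2.30 ± 0.57 and -2.97 ± 0.78 (edgeR adjusted p = 0.241 and 0.256). Trio and Vav3, guanine nucleotide exchange factors, had the same order. Trio stood at 12.9 and 12.0 CPM in adult libraries against 86.1 and 37.9 CPM in pup libraries, and Vav3 at 19.1 and 9.22 CPM in adult against 61.0 and 71.8 CPM in pup. These values are not net of background, which was expected to give 327 of the 796 Trio counts in pup replicate 1.

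Fgf10, the gene that drives the label, stood at 195 and 40.3 CPM in adult libraries against 27.3 and 24.1 CPM in pup libraries. Its log2 fold change was 2.20 ± 0.79 and did not pass (edgeR adjusted p = 0.284). Plxna4, like Fgf10, was higher in adult replicate 1 than in adult replicate 2. Ordered by level per kb in adult, Efna1 and Unc50 were followed by Plxnb2, Plxna4, Sema3c, Efnb2 and Efnb1. In pup the order began with Efna1 and Unc50, followed by Epha2 and Epha1. Plxna4 stood at place 4 of 72 in adult against place 46 in pup. Levels and places per kb were taken without subtracting the background of pup replicate 1. Epha2 and Epha1 stood at 4.69 and 8.96 CPM per kb in adult, and at 27.9 and 24.2 CPM per kb in pup.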

How the data were processed

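Libraries were made from 1 ng of total RNA of sorted cells with the SMART-Seq HT kit, per the labels' protocols. The values used are the authors' deposited counts: whole, unnormalized reads by Ensembl gene, with a file for each library. The submitters' processing notes name cutadapt 1.18, STAR 2.5.2a, HTSeq 0.11.0, R 3.5.1, DESeq2 1.20.0 and GRCm38. Options, annotation and strand handling were not given in the sources used here. Without strand, overlapping genes cannot be told apart. The tally rows of HTSeq, 31.5% to 32.9% of reads in 3 libraries and 84.4% in pup replicate 1, were left out. The 8 value columns of 2 series tables match no single sample and were not used.

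GENCODE vM21 gave symbols and exon lengths for 53360 of 53465 genes. Counts were fitted in R 4.3.3 with the quasi-likelihood test of edgeR 4.0.16 (TMM, filterByExpr with minimum count 10 and minimum total 15, age as the only term) over all genes, with Benjamini-Hochberg adjustment and a threshold of 0.05. The script was tested on simulated data. The SE is the log2 fold change divided by the square root of F. CPM are TMM-scaled. The expected background of pup replicate 1 is its olfactory receptor rate per kb times exon length, at 0.5 of the rate on X and Y. Alternatives were DESeq2 1.42.0, limma-voom (limma 3.58.1), other scalings and filters, that background subtracted, a replicate block, and each library left out on the 16320 genes, where a lone library is assumed to vary like the other age.

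Members and lists were chosen with earlier results of these data known. Named by rule were Fgf10, per family the 3 most abundant tested members and up to 3 more with the smallest unadjusted p under 0.05, members called by edgeR or DESeq2, and 4 partners per direction; other genes were named after their values were seen. Some items are not reported here.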

Additional observations from a re-analysis of the deposited data

How the results depend on the processing

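Counts of called members were 0 higher and 0 lower by limma-voom. By edgeR they were the same with the other scalings, the stricter filter, background subtraction and the replicate block. With no filter beyond 1 count they were 1 higher and 2 lower (Plxna4, Robo2 and Unc5c, among 45490 genes), and by DESeq2 2 higher and 9 lower. Leaving out libraries gave 0 to 1 higher and 0 to 9 lower, 1 to 3 higher and 4 to 18 lower at an unadjusted p under 0.05, and medians from -1.82 to -0.55; the cause was not tested. Other settings kept the median between -1.31 (library totals) and -0.59 (background subtracted). With no filter beyond 1 count, the median was -1.29 for the 72 members and -3.62 for all genes, so the order was reversed. There 50 members were negative, beside 80.6% of all genes. In every other setting the median of the members lay below that of all genes. The correlation of within-age differences between same-numbered libraries was -0.0348. The background of pup replicate 1 enters the pup difference, so this value cannot show whether same-numbered libraries were paired. The replicate block gave 2 members higher and 11 lower at an unadjusted p under 0.05 and a median of -1.20.

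Of the 38 named members, these changed sign. Ephb6 was 0.12 with no filter. Efna1 was -0.0247 with library totals. Efnb1 was -0.0405, -0.16 and -0.0537 with upper-quartile factors, library totals and background subtraction. Ntn1 was -1.50 by limma-voom and -1.20 with the replicate block. Leaving out libraries turned Ephb6 (range -0.55 to 0.28), Sema3c (-0.81 to 0.24), Sema3f (-0.21 to 1.31), Efna1 (-0.27 to 0.99), Efnb1 (-0.35 to 0.70), Unc5a (-0.22 to 1.82), Ntn1 (-5.37 to 2.12), Robo4 (-7.38 to 11.16) and Slit2 (-1.82 to 0.48). Scaling shifted the median of all genes from -0.24 to -0.31, -0.42 and -0.62 with the factors of DESeq2, upper quartiles and totals. For the 11 members outside the filter, counts near 0 do not tell a low level from absence. In these libraries 3 counts correspond to 0.158 to 0.325 CPM, for counting error only.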
